A study of Drosophila melanogaster with 24 samples.

Results

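Adult Drosophila melanogaster flies of 3 hyperoxia-selected populations (SO2A flies) were compared with adult flies of 3 control populations on 12 of the 24 arrays of the series, with 2 arrays for each population. The other 12 arrays hold 3rd instar larvae of the same populations. SO2A and control populations were founded from 1 pool of 27 isogenic wild-type lines, with no transgene or induced mutation. SO2A flies were selected over generations at increasing oxygen and lived in 90% O2, whereas generation-matched control flies lived in room air with 21% O2. Each adult sample combined 25 males with 25 females. The sources used here do not give the age of the flies. Past selection and present oxygen cannot be told apart in this design. The comparison covers 7798 probe sets, called members below, of the 18769 tested. A member had a geometric mean signal of at least 1000 over the 12 adult arrays, which 8056 probe sets reached (the dimmest of these had a log2 fold change of -0.46, and the brightest of the others, with a geometric mean of 999.5, one of 0.26). Of these, 225 were left out because their gene stands in the study's own table of changed genes, and 33 more because they encode antimicrobial peptides or flight muscle proteins. The members carry 6655 gene names, and 866 of them have no single gene name.

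Oxygen enters the tracheae of a fly by diffusion and is used mainly by the mitochondrial respiratory chain, in which complexes I to IV pass electrons to oxygen and ATP synthase uses the resulting proton gradient. The same chain is a source of superoxide, which superoxide dismutases, peroxidases and the thioredoxin system remove. Whole-fly RNA mixes fat body, gut, gonads, head and thorax, so in these samples fewer cells of a type and less RNA per cell cannot be told apart.

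Signals are linear, and all 12 arrays had the same trimmed mean of 2500.1. The correlation of log2 signals between arrays over the members lay between 0.884 and 0.989. The arrays of SO2A population 2 stood apart from each other. SO2A array 2-2 (population 2, second array) correlated at 0.977 and 0.967 with the 2 arrays of SO2A population 1 and at 0.941 with its partner, whereas array 2-1 correlated at 0.983 and 0.986 with the arrays of SO2A population 3. In 1382 members the signals of SO2A arrays 1-1, 1-2 and 2-2 were all below those of SO2A arrays 2-1, 3-1 and 3-2, and in 1950 members they were all above, which together make 3332 of the 7798 members. This split was picked after the correlations of these members were seen, so the counts describe it and do not test it. The share over all probe sets was not computed. Control array 2-2 had the lowest mean correlation with the other 11 arrays (0.927, against 0.946 to 0.969 for the others). It also had the lowest sum of testis marker signals, whereas control array 3-1 had the highest. Calls and list medians are also given without SO2A arrays 1-1, 1-2 and 2-2, and without control arrays 2-2 and 3-1, where a call changed or a median moved by over 0.1.

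Most members had similar signals in SO2A and control flies, and 7419 of 7798 (95.1%) had a log2 fold change within 0.5 of 0. The fold change is the mean log2 signal of SO2A arrays less that of control arrays. It was fitted with limma with the population as a block, and Benjamini-Hochberg adjustment ran over all 18769 probe sets. At an adjusted p under 0.05, 7 members were called (0.0898% of members), 2 higher and 5 lower in SO2A flies. Over all probe sets 67 were called (0.357%), 15 of them higher (0.0799%) and 52 lower (0.277%). Of these 67, 42 belong to genes of the study's table, which was drawn from these same arrays, and 18 others were too dim for membership, so the share among the members follows in part from the choice of members. When only the 8056 bright probe sets were tested, the adjustment was over fewer tests and 90 members were called (1.15%), 29 higher and 61 lower, the same 7 among them. An unadjusted p under 0.05 was found for 1035 members (13.3%), against 11.1% of all probe sets. The Student t-test named in the methods, adjusted by Benjamini-Hochberg and called the methods' t-test here, called 122 members, against 1.20% of all probe sets. In 99 members (1.27%) all 6 SO2A arrays were above all 6 control arrays, and in 161 (2.06%) all were below, where the shares over all probe sets were 0.852% and 1.55%. With each population left out in turn, limma called between 0 and 1 members (with an unadjusted p under 0.05 in 667 to 1154). Without SO2A arrays 1-1, 1-2 and 2-2 it called 73, 65 higher and 8 lower, of which CG7381 was the 1 shared with the 7. These arrays were picked after the data were seen, and the 3 SO2A arrays kept correlated with each other at 0.983 to 0.987. The 73 calls are therefore not read as a result about the members. With quantile normalization limma called 4 higher and 6 lower. The 7 called genes are the coloured points in the plot of fold change against signal.

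**Figure D1:**
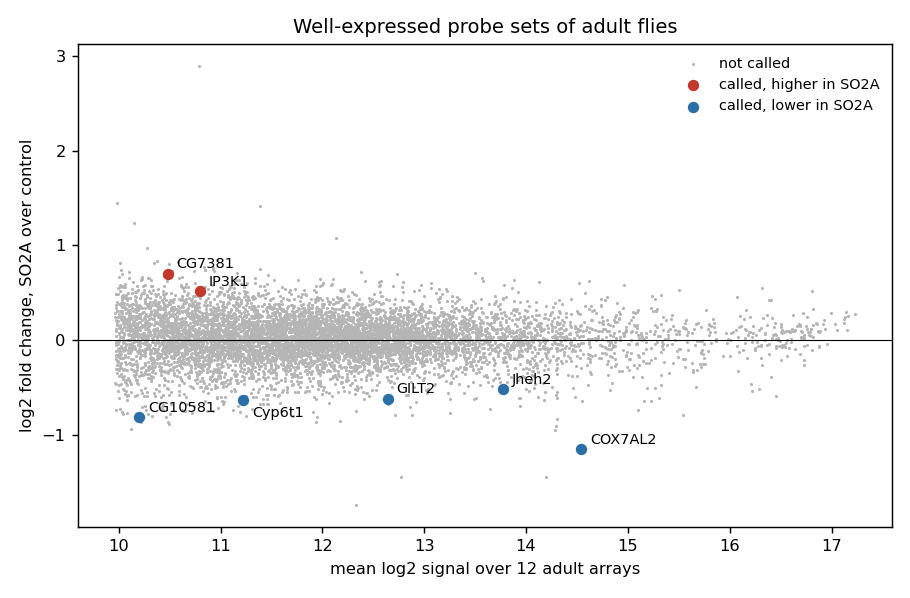
Log2 fold change of SO2A over control adults against mean log2 signal over 12 adult arrays, with 1 point for each of 7798 members. The 2 members called higher (red) and 5 called lower (blue) are named, and 7419 points lie within 0.5 of 0.

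COX7AL2, which encodes a protein like subunit 7A of cytochrome c oxidase, had the largest fold change of the called members. Its signals were 13197, 16530 and 19126 on SO2A arrays, against 26461, 34528 and 55461 on control arrays (lowest, median and highest of 6, as in all such triplets below). Every SO2A array lay below every control array, and control array 3-1 lay above the other 5 control arrays. On the log2 scale COX7AL2 fell by 1.15 with a standard error (SE) of 0.19 (adjusted p = 0.0349 by limma). Without control array 3-1 the log2 fold change was -1.02 (adjusted p = 0.0337). The probes of this set can match more than 1 related transcript, so its signal may include a close copy of the gene.

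A pair of called genes act on small lipophilic molecules. Jheh2 encodes a juvenile hormone epoxide hydrolase, an enzyme that inactivates juvenile hormone, and had signals of 10896, 11830 and 12285 on SO2A arrays, against 14850, 16981 and 17956 on control arrays. The groups did not overlap, and Jheh2 fell by 0.52 (SE 0.09, adjusted p = 0.0349 by limma). Cyp6t1, a cytochrome P450 monooxygenase, had signals of 1708, 1850 and 2281 on SO2A arrays, against 2818, 2913 and 3398 on control arrays. The highest SO2A array was below the lowest control array, and Cyp6t1 fell by 0.64 (SE 0.11, adjusted p = 0.0349 by limma). GILT2 belongs to the family of gamma-interferon-inducible lysosomal thiol reductases, which reduce disulfide bonds. It had signals of 4384, 5281 and 6050 on SO2A arrays, against 7356, 7937 and 8459 on control arrays, with both arrays of SO2A population 1 the lowest. GILT2 fell by 0.62 (SE 0.11, adjusted p = 0.0411 by limma).

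CG10581 had signals of 627, 904 and 1133 on SO2A arrays, against 1449, 1566 and 1711 on control arrays, again without overlap, and fell by 0.81 (SE 0.14, adjusted p = 0.0411 by limma). IP3K1 encodes a kinase that phosphorylates inositol 1,4,5-trisphosphate, the messenger that releases calcium from the endoplasmic reticulum. Its signals were 1901, 2159 and 2284 on SO2A arrays, against 1368, 1480 and 1674 on control arrays, and all SO2A arrays lay above all control arrays. IP3K1 rose by 0.51 (SE 0.09, adjusted p = 0.0427 by limma). CG7381 had signals of 1672, 1843 and 2021 on SO2A arrays, against 1051, 1092 and 1250 on control arrays, without overlap. CG7381 rose by 0.70 (SE 0.09, adjusted p = 0.0149 by limma), and it was the 1 of these 7 whose call held without SO2A population 1 (adjusted p = 0.0489).

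None of the 7 calls held without each of the 6 populations in turn. The highest limma adjusted p over those 6 fits was 0.102 for CG7381, 0.165 for COX7AL2, 0.184 for Cyp6t1, 0.21 for Jheh2, 0.229 for GILT2, 0.229 for CG10581 and 0.244 for IP3K1. The sign of the fold change stayed in all of them. Without SO2A arrays 1-1, 1-2 and 2-2, the call of CG7381 held (adjusted p = 0.0295), and the other 6 had adjusted p between 0.0585 for CG10581 and 0.138 for IP3K1. Without control array 3-1 the calls of CG7381 and COX7AL2 held and the other 5 did not. Without control array 2-2 those of CG7381, COX7AL2, Cyp6t1 and Jheh2 held, and without SO2A array 2-2 that of CG7381 alone. With each array centred on its median instead, limma called 0 of the members, while 423 passed an unadjusted 0.05.

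**Figure D2:**
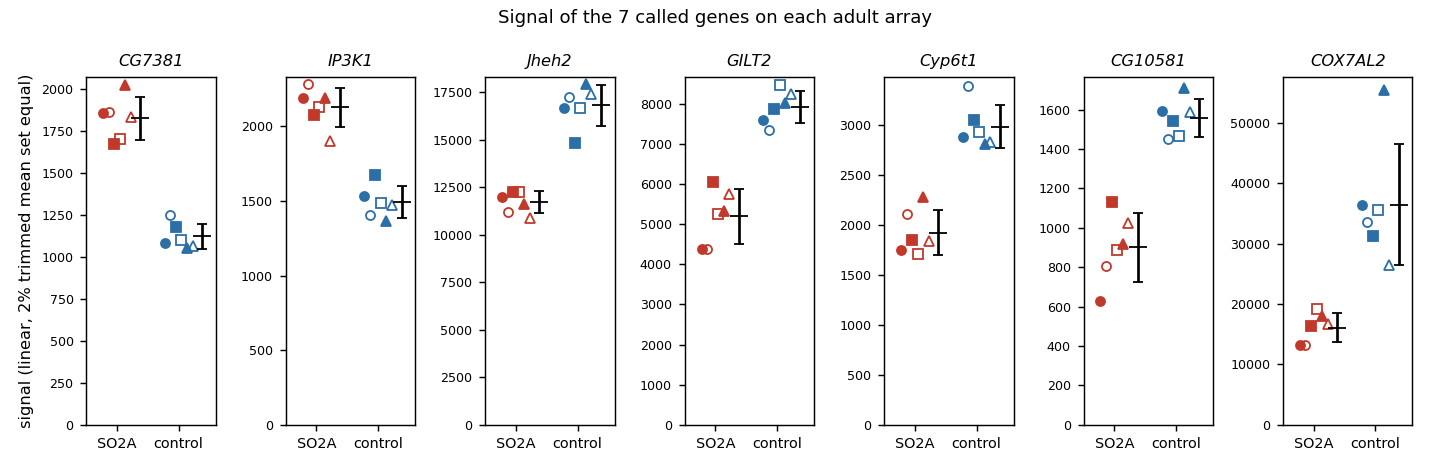
Linear signal of the 7 called genes on each adult array, SO2A (red) left of control (blue). Circles, squares and triangles are populations 1, 2 and 3, filled for the first and open for the second array, and the black bar is the mean ± SD of 6 arrays. The 2 groups do not overlap in any of the 7 genes.

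Beyond the called genes, the named members with the largest fold changes among those whose groups did not overlap were looked at next. Those with higher signals in SO2A flies include 2 chitinases, enzymes that cleave chitin. Cht4 had signals of 1149, 1810 and 2805 on SO2A arrays, against 455, 1001 and 1126 on control arrays (log2 fold change 0.97, SE 0.29, adjusted p = 0.225 by limma). Cht8 had signals of 1934, 2597 and 3289 on SO2A arrays, against 1375, 1530 and 1727 on control arrays (log2 fold change 0.73, SE 0.14, adjusted p = 0.0645). Both groups of Cht4 spread widely, with the lowest value on control array 2-2. MCTS1 encodes a factor that lets ribosomes restart after short upstream reading frames, and had signals of 1110 to 1686 on SO2A arrays, against 732 to 929 on control arrays (log2 fold change 0.70, SE 0.14, adjusted p = 0.0645). The initiation factor gene eIF4B had signals of 7348 to 11897 on SO2A arrays, against 5631 to 7003 on control arrays (log2 fold change 0.58, SE 0.16, adjusted p = 0.176), and its 3 other probe sets had log2 fold changes of 1.03, -0.07 and 0.23, so the probe sets of this gene disagree. Usp47, a deubiquitinating enzyme, had signals of 6687 to 10904 on SO2A arrays, against 4495 to 6543 on control arrays (log2 fold change 0.62, SE 0.15, adjusted p = 0.143). With only bright probe sets tested, Cht8, MCTS1 and Usp47 were called (adjusted p = 0.0168, 0.0173 and 0.0492 by limma). In that test Cht4 and eIF4B were not called (adjusted p = 0.0983 and 0.0717 by limma).

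The remaining genes of this kind have unlike roles. CG3168 had signals of 13908, 14910 and 17463 on SO2A arrays, against 6968, 10302 and 11082 on control arrays, with control array 2-2 the lowest (log2 fold change 0.65, SE 0.13, adjusted p = 0.0762 by limma). Signals of nom were 2081 to 2580 on SO2A arrays, against 1097 to 1848 on control arrays (log2 fold change 0.74, SE 0.15, adjusted p = 0.08). Those of CG8774 were 2535 to 3345 on SO2A arrays, against 1621 to 2137 on control arrays (log2 fold change 0.63, SE 0.12, adjusted p = 0.0607). For CG3168, nom and CG8774, all 6 SO2A arrays lay above every control array, as the choice of the genes of this paragraph required. The gene mav encodes maverick, a ligand of the TGF-beta family, and had signals of 3388 to 5560 on SO2A arrays, against 2283 to 3329 on control arrays (log2 fold change 0.63, SE 0.15, adjusted p = 0.126). Karst (kst), the heavy beta-spectrin of apical epithelial membranes, had signals of 2713 to 3299 on SO2A arrays, against 1267 to 2566 on control arrays (log2 fold change 0.61, SE 0.17, adjusted p = 0.184). Aubergine (aub), a Piwi protein of the germline pathway that silences transposons, had signals of 5969 to 9816 on SO2A arrays, against 4532 to 5505 on control arrays (log2 fold change 0.58, SE 0.14, adjusted p = 0.126). None of the genes of this paragraph passed the test over all probe sets. With only bright probe sets tested, CG3168, nom, CG8774, mav and aub were called (adjusted p = 0.0221, 0.0243, 0.0135, 0.0352 and 0.037 by limma). In that test kst was not called (adjusted p = 0.0719 by limma).

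Among the members whose SO2A arrays all lay below the control arrays, 1 acts in the release of fat stores and 1 in fat storage. AkhR encodes the receptor for adipokinetic hormone, through which the fat body releases its stores, and had signals of 552, 932 and 1136 on SO2A arrays, against 1460, 1571 and 2026 on control arrays. The SO2A values lay between 552 and 1136 and control array 3-1 was the highest (log2 fold change -0.87, SE 0.18, adjusted p = 0.0831 by limma). A second AkhR probe set had a log2 fold change of -0.56. Fitm, a membrane protein of the endoplasmic reticulum needed for lipid droplets, had signals of 834, 1213 and 1849 on SO2A arrays, against 1904, 2025 and 2281 on control arrays (log2 fold change -0.75, SE 0.20, adjusted p = 0.17), with -0.24 at its other probe set. In both genes the 2 groups were separated, as their choice required, and neither passed the test over all probe sets. With only bright probe sets tested, AkhR was called (adjusted p = 0.0263 by limma) and Fitm was not (0.0713).

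CG43074 had the largest fold change of this kind. Its signals were 1777 and 1650 in SO2A population 1, 7063 and 5175 in population 2, and 6724 and 8055 in population 3, against 9831 to 14035 on control arrays (log2 fold change -1.45, SE 0.41, adjusted p = 0.198 by limma). SO2A population 1 thus lay far below the other SO2A populations. CG13833 had signals of 1055 to 1540 on SO2A arrays, against 1775 to 2821 on control arrays (log2 fold change -0.77, SE 0.15, adjusted p = 0.0686). The endoribonuclease gene EndoU had signals of 740 to 1140 on SO2A arrays, against 1289 to 1963 on control arrays (log2 fold change -0.74, SE 0.16, adjusted p = 0.0998). Alp5, an alkaline phosphatase, had signals of 683 to 1477 on SO2A arrays, against 1509 to 2220 on control arrays (log2 fold change -0.68, SE 0.20, adjusted p = 0.213). For CG13833, EndoU and Alp5, all 6 SO2A arrays lay below every control array, as the choice of the genes of this paragraph required. Obp18a, an odorant-binding protein, had signals of 1674 to 2670 on SO2A arrays, against 3035 to 4844 on control arrays (log2 fold change -0.67, SE 0.16, adjusted p = 0.126). CG11342 had 738 to 1315 on SO2A arrays, against 1350 to 1829 on control arrays (log2 fold change -0.71, SE 0.17, adjusted p = 0.138), and CG43090 had 5045 to 8077 on SO2A arrays, against 8220 to 10913 on control arrays (log2 fold change -0.65, SE 0.13, adjusted p = 0.0686). CG1407 had 681 to 1586 on SO2A arrays, against 1599 to 2183 on control arrays (log2 fold change -0.81, SE 0.21, adjusted p = 0.153). The 3 other probe sets of CG1407 had log2 fold changes of 0.28, -0.11 and 0.27. With only bright probe sets tested, CG13833, EndoU, Obp18a, CG11342 and CG43090 were called (adjusted p = 0.0217, 0.0342, 0.0435, 0.0435 and 0.0176 by limma). In that test CG43074, Alp5 and CG1407 were not called (adjusted p = 0.0746, 0.0872 and 0.0536 by limma).

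Members were also grouped by function. The 45 lists with at least 3 members hold 759 genes, of which limma called 3 (COX7AL2, Jheh2 and Cyp6t1), or 0.395%, where the share over all probe sets was 0.357%. An unadjusted p under 0.05 was found for 143 of them (18.8%, against 11.1% of all probe sets and 13.3% of members), and the methods' t-test called 12. All 6 SO2A arrays lay above all control arrays in 8 of the 759 (1.05%, against 0.852% of all probe sets and 1.27% of members). They lay below them in 23 (3.03%, against 1.55% and 2.06%). The lists were written with earlier results of these data known. Well-expressed genes of the study's table are left out of them, so their counts and medians do not cover whole families. A list is described below by how many of its well-expressed genes (1 probe set each, the brightest) had a positive or negative log2 fold change, and by its median, which was 0.02 over all members and 0.06 over all probe sets. Unless a gene is said to be called, it did not pass the test at an adjusted p under 0.05. In 12 of the 45 lists the median changed sign with at least 1 population left out, and apart from testis genes and peritrophic matrix proteins these medians lay within 0.1 of 0. With median centring the median over all members was -0.06, and the median of every list was lower than without it. The plot of the lists shows each gene as a tick.

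**Figure D3:**
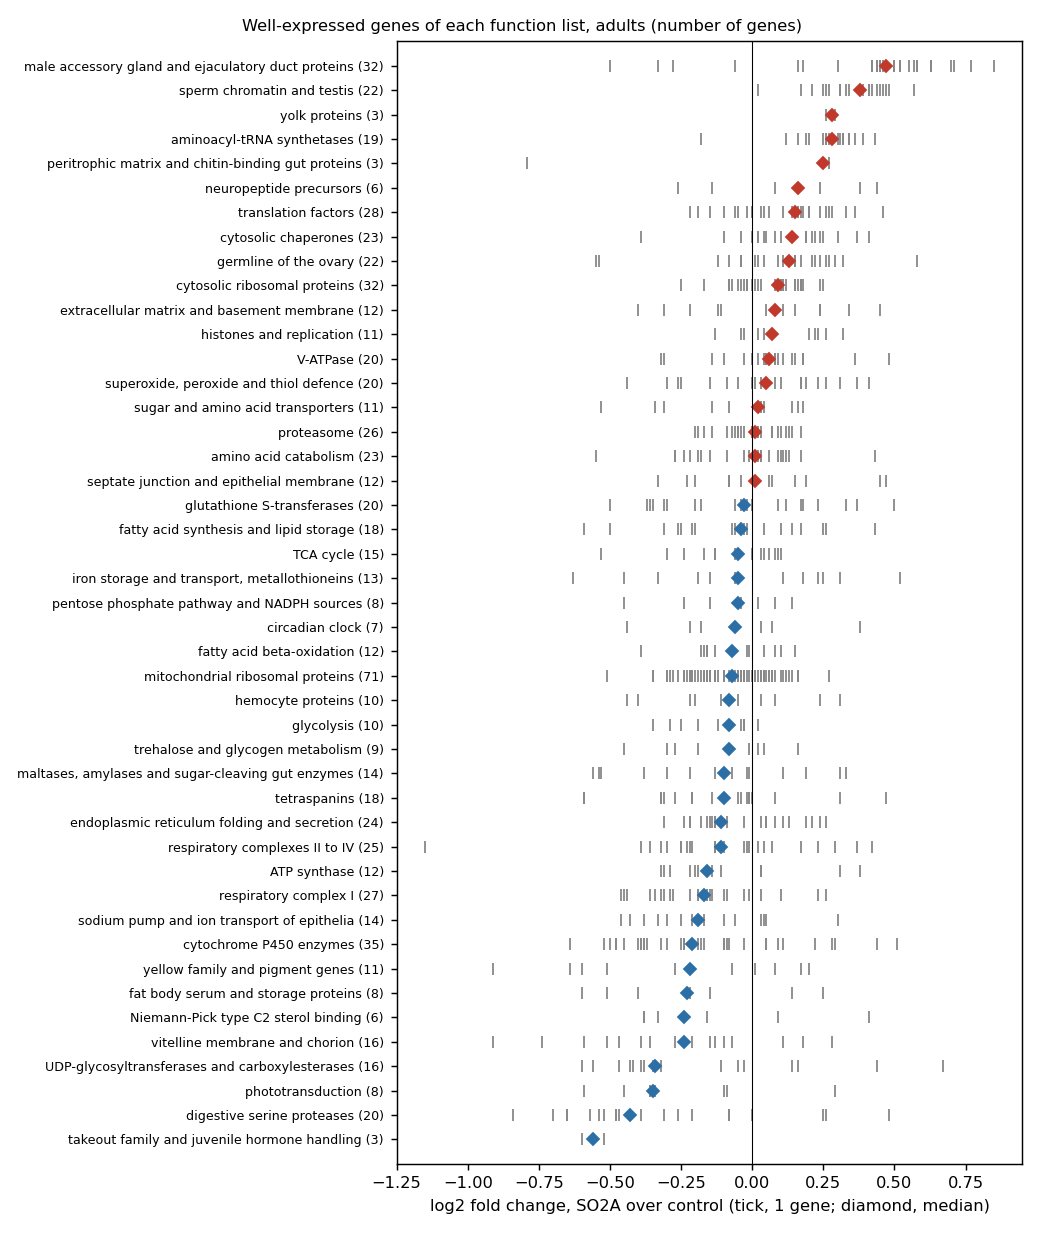
Log2 fold change of SO2A over control adults for the well-expressed genes of 45 function lists (grey tick, 1 gene; diamond, median, red above and blue below 0), with the number of genes in brackets. Genes of the study's table are left out. Most medians lie within 0.2 of 0, and the lowest is that of the takeout and juvenile hormone list (-0.56).

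Most genes of the respiratory chain had small negative log2 fold changes, and 1 of them, COX7AL2, was called. In complex I, which oxidizes NADH, 23 of 27 genes had a negative log2 fold change, the median was -0.17, 9 had an unadjusted p under 0.05 and 4 had all SO2A arrays below all control arrays. Over all probe sets these shares were 11.1% for an unadjusted p under 0.05 in either direction and 1.55% for SO2A arrays all below control. Over members they were 13.3% and 2.06%. All 9 complex I genes with an unadjusted p under 0.05 were lower. ND-B14.7 had signals of 9416, 12313 and 13878 on SO2A arrays, against 14703, 15657 and 18096 on control arrays (log2 fold change -0.45, SE 0.13, adjusted p = 0.193 by limma). ND-13B had signals of 7705, 8829 and 10287 on SO2A arrays, against 10860, 11109 and 11901 on control arrays (log2 fold change -0.34, SE 0.10, adjusted p = 0.225), and its control arrays lay within a narrow range. Signals of ND-B17.2 were 8533 to 12966 on SO2A arrays, against 12914 to 16697 on control arrays (log2 fold change -0.44, SE 0.13, adjusted p = 0.23). For ND-B14.7, ND-13B and ND-B17.2, 6, 6 and 5 of the 6 SO2A arrays lay below every control array. Those of ND-18 were 6284 to 9039 on SO2A arrays, against 8785 to 10837 on control arrays (log2 fold change -0.36, SE 0.11, adjusted p = 0.25). The groups overlapped in these last 2 genes by 1 SO2A array.

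In complexes II to IV, 17 of 25 genes had a negative log2 fold change, with a median of -0.11, and COX7AL2 was the 1 called gene. The cytochrome c oxidase subunit gene levy had signals of 40416, 48165 and 53443 on SO2A arrays, against 55399, 58330 and 61968 on control arrays (log2 fold change -0.32, SE 0.11, adjusted p = 0.299 by limma), without overlap. COX5B had signals of 24753 to 40408 on SO2A arrays, against 35234 to 46308 on control arrays (log2 fold change -0.39, SE 0.16, adjusted p = 0.37). SdhC of complex II had 18093 to 25453 on SO2A arrays, against 24381 to 29666 on control arrays (log2 fold change -0.30, SE 0.12, adjusted p = 0.371). For ATP synthase, 8 of 12 genes had a negative log2 fold change, with a median of -0.16. ATPsyndelta had signals of 23024 to 32305 on SO2A arrays, against 32148 to 37776 on control arrays (log2 fold change -0.32, SE 0.13, adjusted p = 0.354). ATPsynO had 37129 to 56026 on SO2A arrays, against 53972 to 65850 on control arrays (log2 fold change -0.31, SE 0.14, adjusted p = 0.429).

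These medians drew much of their size from 3 SO2A arrays. The mean log2 signal of complex I genes, relative to the mean of the control arrays, was -0.34, -0.35 and -0.21 on SO2A arrays 1-1, 1-2 and 2-2 and -0.01, -0.07 and -0.05 on arrays 2-1, 3-1 and 3-2, against -0.08 to 0.16 on control arrays. For complexes II to IV this mean lay between -0.28 and 0.02 on SO2A arrays, against -0.36 to 0.40 on control arrays, and for ATP synthase between -0.24 and 0.01 on SO2A arrays, against -0.33 to 0.25 on control arrays. In both lists every SO2A array lay within the range of the control arrays, and in complex I 3 of the 6 did. Without SO2A arrays 1-1, 1-2 and 2-2 the median was -0.09 for complex I, -0.02 for complexes II to IV and -0.05 for ATP synthase. With each population left out in turn it lay between -0.23 and -0.10 for complex I. With median centring the medians were -0.25 for complex I, -0.20 for complexes II to IV and -0.25 for ATP synthase. Some subunits of the chain have paralogs that testis expresses, and on control arrays the mean of complexes II to IV was lowest on array 2-2 (-0.36) and highest on array 3-1 (0.40), as was that of testis genes (-1.43 and 0.92). Among the 8 positive genes of complexes II to IV the largest log2 fold changes were those of COX6CL (0.42), COX5BL (0.37) and COX4L (0.29). In ATP synthase they were those of ATPsynGL (0.38) and ATPsynCF6L (0.31). These genes, picked after their values were seen, are named as paralogs of subunits, as is COX7AL2 (-1.15). The part of testis RNA in these values was not tested.

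The pathways that feed the chain had medians within 0.1 of 0 on the deposited scale. In the tricarboxylic acid cycle 9 of 15 genes had a negative log2 fold change (median -0.05). A pair of subunits of NAD-dependent isocitrate dehydrogenase had the lowest p of this list. Idh3g had signals of 5858, 7094 and 8009 on SO2A arrays, against 7720, 10506 and 11581 on control arrays (log2 fold change -0.53, SE 0.13, adjusted p = 0.149 by limma), where control array 2-2 lay within the SO2A range. Idh3b had signals of 9321, 10297 and 11033 on SO2A arrays, against 11193, 12045 and 13652 on control arrays (log2 fold change -0.24, SE 0.09, adjusted p = 0.368), without overlap. In glycolysis 9 of 10 genes had a negative log2 fold change (median -0.08). Gapdh1 had signals of 41866, 50823 and 52688 on SO2A arrays, against 54549, 59093 and 70088 on control arrays, without overlap (log2 fold change -0.29, SE 0.10, adjusted p = 0.316). Ald1 had 24722 to 33027 on SO2A arrays, against 30104 to 36075 on control arrays (log2 fold change -0.25, SE 0.11, adjusted p = 0.445). The medians of the pentose phosphate pathway (-0.05 over 8 genes) and of beta-oxidation (-0.07 over 12) were within 0.1 of 0, and the second was 0.04 without SO2A arrays 1-1, 1-2 and 2-2. With median centring the medians were -0.14 for the tricarboxylic acid cycle, -0.17 for glycolysis, -0.13 for the pentose phosphate pathway and -0.16 for beta-oxidation.

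Most genes that load amino acids onto tRNA had a positive log2 fold change, and none of them was called. Of 19 aminoacyl-tRNA synthetase genes, 18 had a positive log2 fold change and the median was 0.28. An unadjusted p under 0.05 was found for 10, all higher, and 3 had all SO2A arrays above all control arrays. Over all probe sets these shares were 11.1% (either direction) and 0.852%, and over members 13.3% and 1.27%. The glutamyl-prolyl enzyme gene GluProRS had signals of 12870, 16198 and 19428 on SO2A arrays, against 10627, 11806 and 14309 on control arrays (log2 fold change 0.43, SE 0.12, adjusted p = 0.207 by limma), and 5 of its 6 SO2A arrays were above every control array. TyrRS had signals of 8293, 9044 and 9800 on SO2A arrays, against 6427, 7082 and 8257 on control arrays (log2 fold change 0.34, SE 0.10, adjusted p = 0.21). AsnRS had 10969, 11845 and 13616 on SO2A arrays, against 8899, 9503 and 10847 on control arrays (log2 fold change 0.31, SE 0.10, adjusted p = 0.246), both without overlap. For GluProRS, TyrRS and AsnRS, 5, 6 and 6 of the 6 SO2A arrays lay above every control array. Signals of IleRS were 9908 to 14274 on SO2A arrays, against 8304 to 10189 on control arrays (log2 fold change 0.32, SE 0.11, adjusted p = 0.293). By array, the mean of this list relative to control was 0.32, 0.46, 0.12, 0.35, 0.11 and 0.19 on SO2A arrays 1-1 to 3-2, all above 0, against -0.15 to 0.11 on control arrays. The median stayed positive in each fit that left out a population (0.22 to 0.36), and it was 0.14 without SO2A arrays 1-1, 1-2 and 2-2 and 0.20 with median centring.

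Translation factors lay on the same side, by less. Of 28 genes 21 had a positive log2 fold change (median 0.15, and 0.04 without SO2A arrays 1-1, 1-2 and 2-2 and 0.06 with median centring). eIF5B, which joins the ribosomal subunits, had signals of 9494, 11468 and 14327 on SO2A arrays, against 8176, 8367 and 8877 on control arrays, without overlap (log2 fold change 0.46, SE 0.13, adjusted p = 0.193 by limma). The poly(A)-binding protein gene pAbp had 35383 to 58215 on SO2A arrays, against 31604 to 39995 on control arrays (log2 fold change 0.33, SE 0.14, adjusted p = 0.41), and eIF3a had 12537 to 17391 on SO2A arrays, against 11045 to 13049 on control arrays (log2 fold change 0.28, SE 0.12, adjusted p = 0.418). eIF6, which keeps the large ribosomal subunit apart from the small one, went the other way in sign, with 7138 to 8363 on SO2A arrays, against 7625 to 9821 on control arrays (log2 fold change -0.22, SE 0.10, adjusted p = 0.426). The median of the 32 cytosolic ribosomal protein genes was 0.09, and its sign turned with the scaling (-0.02 with quantile normalization), while it was 0.20 without the 3 SO2A arrays. RpL37-1 had signals of 79632 to 97384 on SO2A arrays, against 66305 to 82945 on control arrays (log2 fold change 0.24, SE 0.11, adjusted p = 0.433) and RpL34a of 22453 to 28446 on SO2A arrays, against 27154 to 33215 on control arrays (log2 fold change -0.25, SE 0.10, adjusted p = 0.371). Of 71 mitochondrial ribosomal protein genes, 49 had a negative log2 fold change (median -0.07), among them mRpL40 with 3409 to 4186 on SO2A arrays, against 4277 to 5198 on control arrays (log2 fold change -0.29, SE 0.10, adjusted p = 0.293) and mRpL42 with 2420 to 4459 on SO2A arrays, against 3724 to 5931 on control arrays (log2 fold change -0.51, SE 0.18, adjusted p = 0.297), whereas mRpL12 had 13381 to 17337 on SO2A arrays, against 10896 to 13652 on control arrays (log2 fold change 0.27, SE 0.11, adjusted p = 0.354).

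Chaperone genes also had mostly positive fold changes, 20 of 23 with a median of 0.14. The median was 0.02 without SO2A arrays 1-1, 1-2 and 2-2 and 0.06 with median centring, and the mean of the list relative to control was 0.16, 0.22 and 0.31 on these 3 arrays and 0.03, -0.03 and 0.03 on arrays 2-1, 3-1 and 3-2, against -0.04 to 0.07 on control arrays. Hsc70-4, the abundant constitutive chaperone of the Hsp70 family, had signals of 111482, 121608 and 127538 on SO2A arrays, against 88987, 103095 and 110961 on control arrays, without overlap (log2 fold change 0.24, SE 0.09, adjusted p = 0.333 by limma). CCT1, a subunit of the chaperonin that folds actin and tubulin, had 27920 to 35207 on SO2A arrays, against 20797 to 30510 on control arrays (log2 fold change 0.37, SE 0.12, adjusted p = 0.273). The mitochondrial chaperonin gene Hsp60A had 40264 to 51236 on SO2A arrays, against 31111 to 45442 on control arrays (log2 fold change 0.30, SE 0.12, adjusted p = 0.368). For Hsc70-4, CCT1 and Hsp60A, 6, 3 and 3 of the 6 SO2A arrays lay above every control array. Hsc70-1 had lower signals, 1778 to 3063 on SO2A arrays, against 2637 to 3736 on control arrays (log2 fold change -0.39, SE 0.15, adjusted p = 0.352). Proteasome genes were centred on 0 (median 0.01 over 26 genes, none with an unadjusted p under 0.05). In the endoplasmic reticulum list 14 of 24 genes had a negative log2 fold change (median -0.11). Sec61alpha, the channel through which proteins enter the endoplasmic reticulum, had signals of 23676 to 35923 on SO2A arrays, against 34614 to 38868 on control arrays (log2 fold change -0.31, SE 0.12, adjusted p = 0.355). The cargo receptor gene bai had 17695 to 21163 on SO2A arrays, against 20934 to 24440 on control arrays (log2 fold change -0.22, SE 0.09, adjusted p = 0.368). PEK, the kinase that slows translation when unfolded proteins gather there, had 3169 to 3680 on SO2A arrays, against 2110 to 3478 on control arrays (log2 fold change 0.26, SE 0.13, adjusted p = 0.475).

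**Figure D4:**
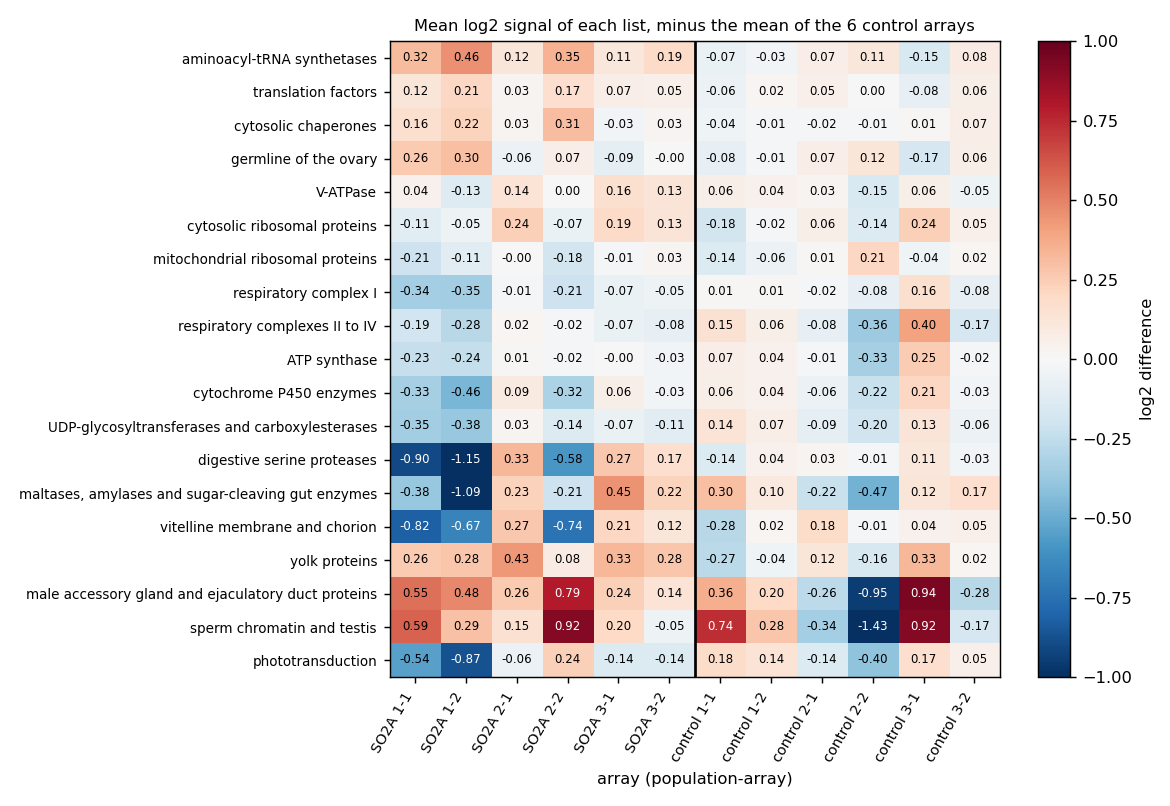
Mean log2 signal of the well-expressed genes of 19 function lists on each adult array, less the mean of the 6 control arrays, with SO2A arrays left of the black line and control arrays right of it. Genes of the study's table are left out. Digestive protease and eggshell lists are below -0.5 on SO2A arrays 1-1, 1-2 and 2-2 and above 0.1 on the other 3 SO2A arrays, and testis genes range between -1.43 and 0.92 on control arrays alone.

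Genes of antioxidant defence went in both directions. Of 20 members of the superoxide, peroxide and thiol list, 13 had a positive log2 fold change (median 0.05, and -0.03 with median centring). Trxr1, the thioredoxin reductase that also serves glutathione in flies, had signals of 19193, 23889 and 26027 on SO2A arrays, against 15729, 19133 and 20122 on control arrays, and 5 of its 6 SO2A arrays were above every control array (log2 fold change 0.31, SE 0.12, adjusted p = 0.342 by limma). Sod3, an extracellular superoxide dismutase, had signals of 10263, 12615 and 14503 on SO2A arrays, against 13930, 16934 and 18433 on control arrays (log2 fold change -0.44, SE 0.13, adjusted p = 0.233). The groups of Sod3 overlapped by 2 SO2A arrays, and its other probe set had a log2 fold change of -0.29. Gtpx, a peroxidase fed by thioredoxin, had 20066 to 25808 on SO2A arrays, against 25530 to 28827 on control arrays (log2 fold change -0.26, SE 0.10, adjusted p = 0.368). The glutaredoxin gene Grx1 had 9154 to 11946 on SO2A arrays, against 11026 to 13934 on control arrays (log2 fold change -0.25, SE 0.11, adjusted p = 0.413).

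Metal handling held both higher and lower genes. MtnA, a metallothionein that binds copper and other metals, had signals of 102695, 143643 and 156750 on SO2A arrays, against 83571, 91987 and 127747 on control arrays (log2 fold change 0.52, SE 0.15, adjusted p = 0.198 by limma). Ctr1A, which imports copper, had 1682, 2231 and 2697 on SO2A arrays, against 2590, 3349 and 4243 on control arrays (log2 fold change -0.63, SE 0.17, adjusted p = 0.176). The frataxin gene fh, needed for iron-sulfur clusters, had 1542 to 2233 on SO2A arrays, against 2177 to 3113 on control arrays (log2 fold change -0.45, SE 0.14, adjusted p = 0.243). For Ctr1A and fh, 5 of the 6 SO2A arrays each lay below every control array, and for MtnA, 5 lay above every control array. Tsf2, a transferrin of epithelial junctions, had 3384 to 4349 on SO2A arrays, against 4317 to 5570 on control arrays (log2 fold change -0.33, SE 0.11, adjusted p = 0.288). The median of the 13 genes of this list was -0.05, and 0.10 without SO2A arrays 1-1, 1-2 and 2-2.

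Detoxification genes lay mostly on the lower side. Of 35 well-expressed cytochrome P450 genes outside the study's table, out of 81 measured, 26 had a negative log2 fold change (median -0.21) and Cyp6t1 was called. That table holds 3 more well-expressed genes of this list. An unadjusted p under 0.05 was found for 7 lower and 1 higher genes of the 35. Over both directions this share was 11.1% of all probe sets and 13.3% of members. Cyp6a22 had signals of 1964 to 2724 on SO2A arrays, against 2622 to 3632 on control arrays (log2 fold change -0.40, SE 0.12, adjusted p = 0.225 by limma). Cyp28d1 had 3679 to 6724 on SO2A arrays, against 5945 to 8517 on control arrays (log2 fold change -0.48, SE 0.16, adjusted p = 0.277). Cyp12c1 had the opposite sign with 1718 to 3037 on SO2A arrays, against 1554 to 1766 on control arrays (log2 fold change 0.44, SE 0.15, adjusted p = 0.29). Of 16 UDP-glycosyltransferase and carboxylesterase genes 12 had a negative log2 fold change (median -0.34). The esterase gene alpha-Est2 had 1379 to 2001 on SO2A arrays, against 1948 to 3465 on control arrays (log2 fold change -0.60, SE 0.17, adjusted p = 0.206). Est-Q had 1496 to 2746 on SO2A arrays, against 2616 to 3579 on control arrays (log2 fold change -0.56, SE 0.18, adjusted p = 0.265). Ugt301D1 had 1406 to 1975 on SO2A arrays, against 2018 to 2422 on control arrays, without overlap (log2 fold change -0.38, SE 0.11, adjusted p = 0.225), while Ugt49C1 had 865 to 1995 on SO2A arrays, against 666 to 972 on control arrays (log2 fold change 0.67, SE 0.21, adjusted p = 0.238). Without SO2A arrays 1-1, 1-2 and 2-2 the medians were -0.01 for P450 genes and -0.08 for the second list.

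Glutathione S-transferases outside the study's table had no common sign, with 9 of 20 positive (median -0.03, and 0.11 without SO2A arrays 1-1, 1-2 and 2-2). GstD1 had signals of 81301 to 104523 on SO2A arrays, against 73442 to 84472 on control arrays, with 5 of 6 SO2A arrays above every control array (log2 fold change 0.23, SE 0.10, adjusted p = 0.411 by limma). GstZ1, an enzyme of tyrosine breakdown, had 1294 to 2086 on SO2A arrays, against 1021 to 1680 on control arrays (log2 fold change 0.50, SE 0.17, adjusted p = 0.292). GstE12 had 14671 to 22680 on SO2A arrays, against 22079 to 28854 on control arrays (log2 fold change -0.37, SE 0.14, adjusted p = 0.335). Tyrosine breakdown begins with tyrosine aminotransferase, whose gene Tat had signals of 3611, 3961 and 4798 on SO2A arrays, against 5358, 5828 and 6912 on control arrays. The groups of Tat did not overlap (log2 fold change -0.55, SE 0.11, adjusted p = 0.0774). Tat was called when only bright probe sets were tested (adjusted p = 0.0185 by limma), as were several genes above that did not pass over all probe sets. The leucine catabolism gene Mccc1 had 5948 to 9729 on SO2A arrays, against 5229 to 6277 on control arrays (log2 fold change 0.43, SE 0.13, adjusted p = 0.25). The 23 genes of amino acid catabolism had a median of 0.01.

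Juvenile hormone and its binding proteins gave the lowest list median, -0.56, over only 3 members of 12 measured genes. The study's table holds 1 more well-expressed gene of this list, which was left out. Besides Jheh2, which was called, the list held Jhbp5 and Jhbp12, members of the takeout family of juvenile hormone binding proteins. Jhbp5 had signals of 11235, 20089 and 27974 on SO2A arrays, against 23395, 29589 and 33953 on control arrays (log2 fold change -0.60, SE 0.25, adjusted p = 0.392 by limma), with SO2A arrays 1-1, 1-2 and 2-2 the lowest 3. Jhbp12 had 863, 1076 and 1468 on SO2A arrays, against 1105, 1764 and 2051 on control arrays (log2 fold change -0.56, SE 0.20, adjusted p = 0.316), with control arrays 2-1 and 2-2 inside the SO2A range. The median stayed between -0.70 and -0.42 with each population left out and was -0.52 without the 3 SO2A arrays.

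Lipid and carbohydrate stores showed single genes rather than a common shift. Apoltp and apolpp encode the protein parts of the particles that carry lipid in the blood of the fly. Apoltp had signals of 5762, 6663 and 7841 on SO2A arrays, against 3858, 4989 and 6059 on control arrays, with 5 of 6 SO2A arrays above every control array (log2 fold change 0.43, SE 0.13, adjusted p = 0.237 by limma). The apolpp gene had 84569, 94208 and 100591 on SO2A arrays, against 70306, 75870 and 90889 on control arrays (log2 fold change 0.26, SE 0.10, adjusted p = 0.351). Both had positive fold changes, while the lipase gene Lip4 had 606 to 1293 on SO2A arrays, against 1203 to 1648 on control arrays (log2 fold change -0.59, SE 0.18, adjusted p = 0.246). For Lip4, 5 of the 6 SO2A arrays lay below every control array, and for Apoltp and apolpp, 5 and 4 lay above every control array. The lipocalin gene NLaz had 4604 to 8327 on SO2A arrays, against 8027 to 11502 on control arrays (log2 fold change -0.50, SE 0.17, adjusted p = 0.287). The list of fatty acid synthesis and lipid storage had a median of -0.04 over 18 genes. Glycogen phosphorylase (Glyp), which releases glucose from glycogen, had signals of 20964, 24395 and 33770 on SO2A arrays, against 27956, 34826 and 38525 on control arrays (log2 fold change -0.45, SE 0.14, adjusted p = 0.247), where SO2A array 2-2 stood above the other SO2A arrays. The branching enzyme gene AGBE had 7134 to 10814 on SO2A arrays, against 9400 to 13137 on control arrays (log2 fold change -0.30, SE 0.14, adjusted p = 0.474). Pgm1 had 12037 to 20608 on SO2A arrays, against 17949 to 22877 on control arrays (log2 fold change -0.27, SE 0.15, adjusted p = 0.571).

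Among fat body proteins, the storage protein gene Lsp2 had 23672 to 40804 on SO2A arrays, against 39035 to 49175 on control arrays (log2 fold change -0.51, SE 0.17, adjusted p = 0.273). Gbp1, a cytokine precursor released by the fat body, had 1310, 1787 and 2243 on SO2A arrays, against 2297, 2459 and 3611 on control arrays, without overlap (log2 fold change -0.60, SE 0.18, adjusted p = 0.225). The summed signal of 8 fat body marker genes was 629309 to 727873 on SO2A arrays, against 520875 to 717594 on control arrays.

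Digestive genes separated SO2A arrays from each other more than from control. Of 20 digestive serine protease genes outside the study's table, 17 had a negative log2 fold change and the median was -0.43. That table holds 4 more well-expressed genes of this list. Jon25Bi, of the Jonah proteases of the midgut, had signals of 46628, 70478 and 75836 on SO2A arrays, against 79788, 93003 and 113401 on control arrays, without overlap (log2 fold change -0.54, SE 0.16, adjusted p = 0.227 by limma). Jon25Biii had 48983 to 90864 on SO2A arrays, against 81968 to 118787 on control arrays (log2 fold change -0.52, SE 0.17, adjusted p = 0.273). Signals of epsilonTry were 23823 to 48676 on SO2A arrays, against 42981 to 52005 on control arrays (log2 fold change -0.48, SE 0.20, adjusted p = 0.382). For Jon25Bi, Jon25Biii and epsilonTry, 6, 5 and 4 of the 6 SO2A arrays lay below every control array. Those of zetaTry were 1496 to 2267 on SO2A arrays, against 1860 to 2451 on control arrays (log2 fold change -0.31, SE 0.14, adjusted p = 0.425). The mean of the list relative to control was -0.90, -1.15 and -0.58 on SO2A arrays 1-1, 1-2 and 2-2, and 0.33, 0.27 and 0.17 on arrays 2-1, 3-1 and 3-2, against -0.14 to 0.11 on control arrays. Without the first 3 of these arrays the median turned to 0.17, and without SO2A population 1 it was -0.02. Maltases and other sugar-cleaving enzymes did likewise, with a median of -0.10 over 14 genes, 0.35 without the 3 arrays and -0.22 without control array 2-2. Mal-A3 had signals of 702 to 1270 on SO2A arrays, against 998 to 2156 on control arrays (log2 fold change -0.56, SE 0.20, adjusted p = 0.317). LManVI, an alpha-mannosidase, had 2204 to 6384 on SO2A arrays, against 5759 to 8514 on control arrays (log2 fold change -0.53, SE 0.26, adjusted p = 0.476). The summed signal of 8 midgut markers was 236993, 209664 and 276616 on SO2A arrays 1-1, 1-2 and 2-2 and 424763 to 451183 on the other 3, against 339326 to 418852 on control arrays. Midgut content as a part of these values was not tested.

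Eggshell genes split the SO2A arrays in the same way. Chorion and vitelline membrane proteins are made by follicle cells late in egg formation, and 13 of 16 of their genes had a negative log2 fold change (median -0.24). Cp7Fc, a chorion protein, had signals of 11817, 16505 and 20013 on SO2A arrays 1-1, 1-2 and 2-2 and of 44206 to 48812 on the other 3, against 40072 to 58731 on control arrays (log2 fold change -0.74, SE 0.37, adjusted p = 0.492 by limma). The follicle cell gene yellow-g2 had 4794, 7580 and 8646 on the first 3 and 30484 to 33505 on the other 3, against 19976 to 31113 on control arrays (log2 fold change -0.91, SE 0.51, adjusted p = 0.558). Without the first 3 arrays the log2 fold change was 0.05 for Cp7Fc and 0.21 for yellow-g2, and the median of the list was 0.25. Yp1, Yp2 and Yp3 encode the proteins that fat body and follicle cells load into the egg, and their log2 fold changes had the opposite sign, at 0.29, 0.26 and 0.28 (adjusted p = 0.414, 0.477 and 0.438 by limma). Signals of Yp1 were 140088 to 179038 on SO2A arrays, against 107891 to 164732 on control arrays, and the groups overlapped, with control arrays 2-1 and 3-1 above the lowest SO2A array. The summed signal of 7 ovary markers was 189640 to 362679 on SO2A arrays, against 239225 to 334656 on control arrays.

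Germline genes of the ovary included single genes on both sides, with a median of 0.13 over 22 genes (-0.01 without SO2A arrays 1-1, 1-2 and 2-2). Pxt, a peroxidase that makes prostaglandins in the ovary, had signals of 13129, 14600 and 18480 on SO2A arrays, against 19887, 22360 and 26528 on control arrays, without overlap (log2 fold change -0.55, SE 0.13, adjusted p = 0.126 by limma). It was called when only bright probe sets were tested (adjusted p = 0.0456 by limma), as was aub on the higher side (adjusted p = 0.037). The differentiation gene bam had 2432 to 3411 on SO2A arrays, against 3294 to 5149 on control arrays (log2 fold change -0.54, SE 0.14, adjusted p = 0.153), and osk, which sets up the germ plasm, had 33322 to 49238 on SO2A arrays, against 29205 to 34759 on control arrays (log2 fold change 0.32, SE 0.13, adjusted p = 0.368).

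Male genes ranged more widely among control arrays than among SO2A arrays. Of 32 accessory gland and ejaculatory duct genes outside the study's table, 28 had a positive log2 fold change (median 0.47). All 22 well-expressed testis genes outside that table did too (median 0.38), and none of the 22 had an unadjusted p under 0.05. The table holds 3 more well-expressed genes of the first list and 1 more of the second. Acp98AB had signals of 86774, 96746 and 115243 on SO2A arrays, against 42119, 67081 and 112060 on control arrays (log2 fold change 0.55, SE 0.21, adjusted p = 0.34 by limma). The seminal fluid gene CG9997 had 1847, 2765 and 3982 on SO2A arrays, against 508, 1699 and 3167 on control arrays (log2 fold change 0.85, SE 0.44, adjusted p = 0.506). betaTub85D, the beta-tubulin of male germ cells, had 8913, 9931 and 15033 on SO2A arrays, against 2896, 7862 and 15566 on control arrays (log2 fold change 0.46, SE 0.39, adjusted p = 0.724). In all 3 genes control array 2-2 was the lowest and control array 3-1 the highest of the control arrays. The summed signal of 6 testis markers was 34596 to 66158 on SO2A arrays, against 13029 on control array 2-2, 73064 on control array 3-1 and values between these on the other control arrays. That of 7 accessory gland markers was 219450 to 322109 on SO2A arrays, against 101006 to 354067 on control arrays. The part of male RNA in these values was not tested. Without control array 2-2 the median was 0.08 for testis genes and 0.29 for accessory gland genes, and without control array 3-1 it was 0.54 and 0.69. With the first arrays alone these medians were -0.17 and 0.06, with the second arrays alone 0.81 and 0.90, and without SO2A arrays 1-1, 1-2 and 2-2 0.10 and 0.25. EbpIII, an ejaculatory bulb protein, had the opposite sign, with 42124 to 49264 on SO2A arrays, against 48454 to 77536 on control arrays (log2 fold change -0.50, SE 0.12, adjusted p = 0.147).

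Genes of light sensing had a median of -0.35 over the 8 that were well expressed and outside the study's table, which holds 5 more of this list. The eye protein kinase C gene inaC had signals of 540 to 1634 on SO2A arrays, against 1055 to 1795 on control arrays (log2 fold change -0.59, SE 0.28, adjusted p = 0.475 by limma). The channel gene trpl had 1654 to 4861 on SO2A arrays, against 2735 to 5100 on control arrays (log2 fold change -0.45, SE 0.26, adjusted p = 0.584). The arrestin gene Arr1 had 10986 to 37659 on SO2A arrays, against 22916 to 38788 on control arrays (log2 fold change -0.36, SE 0.29, adjusted p = 0.706). SO2A arrays 1-1 and 1-2 had the lowest values in all 3 genes. Without SO2A arrays 1-1, 1-2 and 2-2 the median of the list was -0.14. Without SO2A population 1 it was -0.03 and the log2 fold change of Arr1 was 0.05. The summed signal of 5 eye markers was 15896 and 10976 on these arrays and 38966 to 54269 on the other SO2A arrays, against 44571 to 74709 on control arrays, and 1 of the 5 was called lower. Of the clock genes, timeless (tim) had 3988 to 5938 on SO2A arrays, against 2688 to 4192 on control arrays (log2 fold change 0.38, SE 0.14, adjusted p = 0.331, with -0.32 at its other probe set). Cycle (cyc) had 3005 to 4486 on SO2A arrays, against 3909 to 6185 on control arrays (log2 fold change -0.44, SE 0.15, adjusted p = 0.288). The median over 7 genes was -0.06, and -0.22 without SO2A arrays 1-1, 1-2 and 2-2.

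Epithelial transport gave small shifts. In the list of the sodium pump and ion transport, 10 of 14 genes had a negative log2 fold change (median -0.19), and the median lay between -0.22 and -0.13 with each population left out. Of the 3 well-expressed beta subunit genes of the sodium pump, nrv1 and nrv2 had groups without overlap, and nrv3 (log2 fold change -0.30) did not. Signals of nrv2 were 1995, 2173 and 2479 on SO2A arrays, against 2481, 2821 and 3522 on control arrays (log2 fold change -0.38, SE 0.12, adjusted p = 0.235 by limma). Those of nrv1 were 21872 to 24617 on SO2A arrays, against 25430 to 28713 on control arrays (log2 fold change -0.21, SE 0.08, adjusted p = 0.377). The chloride channel gene Best2 had 2600 to 4091 on SO2A arrays, against 3714 to 5665 on control arrays (log2 fold change -0.46, SE 0.15, adjusted p = 0.281). For nrv2, nrv1 and Best2, 6, 6 and 3 of the 6 SO2A arrays lay below every control array. The aquaporin gene Drip had 1248 to 1864 on SO2A arrays, against 1588 to 2413 on control arrays (log2 fold change -0.43, SE 0.15, adjusted p = 0.285).

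The proton pump (V-ATPase) had a median of 0.06 over 20 genes, which was -0.02 with median centring. Its accessory subunit gene VhaAC45 had 24774, 27737 and 30184 on SO2A arrays, against 19392, 22010 and 23221 on control arrays, without overlap (log2 fold change 0.36, SE 0.10, adjusted p = 0.172). Vha26 had 47233 to 55711 on SO2A arrays, against 40819 to 46795 on control arrays, also without overlap (log2 fold change 0.18, SE 0.09, adjusted p = 0.476). VhaM9.7-c had 3292 to 4630 on SO2A arrays, against 4587 to 6036 on control arrays (log2 fold change -0.32, SE 0.12, adjusted p = 0.329). For VhaM9.7-c, 5 of the 6 SO2A arrays lay below every control array, and for VhaAC45 and Vha26, 6 each lay above every control array. Of the sterol-binding proteins, Npc2b had 3888 to 4866 on SO2A arrays, against 4431 to 7093 on control arrays (log2 fold change -0.38, SE 0.13, adjusted p = 0.28). Npc2a had 12505 to 19479 on SO2A arrays, against 17223 to 20944 on control arrays (log2 fold change -0.33, SE 0.14, adjusted p = 0.413). The amino acid transporter gene CG5535 had 3800 to 6264 on SO2A arrays, against 6228 to 8320 on control arrays (log2 fold change -0.53, SE 0.16, adjusted p = 0.225). For Npc2b, Npc2a and CG5535, 2, 4 and 5 of the 6 SO2A arrays lay below every control array. The sugar transporter gene Glut1 had 1051 to 1375 on SO2A arrays, against 1219 to 1836 on control arrays (log2 fold change -0.34, SE 0.13, adjusted p = 0.355, with 0.09 and 0.11 at its other probe sets).

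Matrix proteins had members on both sides. SPARC, a collagen-binding protein of basement membranes, had signals of 8867, 12264 and 14018 on SO2A arrays, against 14055, 14818 and 18780 on control arrays, without overlap and with control array 3-1 the highest (log2 fold change -0.40, SE 0.14, adjusted p = 0.305 by limma). Nidogen (Ndg) had 1094 to 1407 on SO2A arrays, against 650 to 1174 on control arrays (log2 fold change 0.45, SE 0.15, adjusted p = 0.29). Laminin A (LanA) had 3458 to 4693 on SO2A arrays, against 2449 to 3825 on control arrays (log2 fold change 0.34, SE 0.15, adjusted p = 0.423). For SPARC, all 6 SO2A arrays lay below every control array, and for Ndg and LanA, 5 and 3 lay above every control array. Timp, an inhibitor of matrix metalloproteases, had 2044 to 3173 on SO2A arrays, against 2818 to 3830 on control arrays (log2 fold change -0.31, SE 0.13, adjusted p = 0.419, with 0.10 at its other probe set). The list of 12 matrix genes had a median of 0.08, and of -0.04 with the first arrays alone.

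Among 18 tetraspanins 15 had a negative log2 fold change (median -0.10). Tsp42Ef had 1879, 2354 and 2719 on SO2A arrays, against 3054, 3404 and 3994 on control arrays, without overlap (log2 fold change -0.59, SE 0.13, adjusted p = 0.101). Tsp42Eg had 685 to 1471 on SO2A arrays, against 916 to 1544 on control arrays (log2 fold change -0.59, SE 0.21, adjusted p = 0.293). Of the pigment genes, yellow-k had 917 to 1019 on SO2A arrays, against 1029 to 2180 on control arrays, without overlap (log2 fold change -0.60, SE 0.16, adjusted p = 0.179), and tan (t), which hydrolyses N-beta-alanyl dopamine, had 1064 to 2123 on SO2A arrays, against 2025 to 3215 on control arrays (log2 fold change -0.64, SE 0.19, adjusted p = 0.225). The replication genes dpa, a subunit of the MCM helicase, and RnrL, the large subunit of ribonucleotide reductase, had log2 fold changes of 0.32 and 0.26 (adjusted p = 0.438 and 0.445), and the 11 genes of their list had a median of 0.07. The medians of the other lists with at least 3 members were 0.16 for neuropeptide precursors, -0.08 for hemocyte proteins, 0.01 for septate junctions, -0.23 for fat body serum proteins, 0.25 for peritrophic matrix proteins, -0.08 for glycogen and trehalose, 0.02 for sugar and amino acid transporters, -0.22 for pigment genes and -0.24 for sterol-binding proteins. Without SO2A arrays 1-1, 1-2 and 2-2 they were 0.03 for neuropeptide precursors, -0.01 for fat body serum proteins, 0.50 for peritrophic matrix proteins, -0.13 for sugar and amino acid transporters, -0.02 for pigment genes and -0.09 for sterol-binding proteins. The median of pigment genes was -0.10 without control array 3-1, and that of peritrophic matrix proteins 0.02 without control array 2-2.

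Markers of flight muscle and adult cuticle had lower sums on every SO2A array than on any control array. The summed signal of 5 flight muscle markers was 12551 to 28352 on SO2A arrays, against 32599 to 68028 on control arrays, and 3 of them were called lower. That of 7 adult cuticle markers was 9532 to 18776 on SO2A arrays, against 23060 to 44569 on control arrays, with 1 called lower. The groups overlapped for the other markers. The sum of 6 antennal markers was 2183 to 5269 on SO2A arrays, against 4368 to 7874 on control arrays. That of 6 hemocyte markers was 2946 to 6941 on SO2A arrays, against 4110 to 7055 on control arrays. For 7 neuronal markers it was 5172 to 10064 on SO2A arrays, against 5476 to 7566 on control arrays, and for 7 Malpighian tubule markers 16048 to 24597 on SO2A arrays, against 19904 to 25686 on control arrays. The part of these tissues in the values of the members was not tested.

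The same populations were measured as 3rd instar larvae, and a selection-by-stage term was fitted to all 24 arrays. This interaction was called for 369 of 18769 probe sets (1.97%), 228 of them members, and for 20 of the 140 genes set beside their larval values here. These 140 were chosen by their adult values on arrays that also enter this term, so their share follows in part from the choice. Cyp6t1 and GILT2 were the 2 called adult members that were also called in larvae. GILT2 had a log2 fold change of -0.62 in adults and -2.01 in larvae (adjusted p = 0.0208 by limma), and these differed (adult minus larval 1.40, adjusted p = 0.0452). Cyp6t1 had -0.64 in adults and -1.29 in larvae, and the difference did not pass the test (adjusted p = 0.152 by limma).

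Of the 20 genes, 7 had a higher fold change in adults than in larvae and 13 a lower one. Above 0 in adults and below 0 in larvae were MCTS1 (0.70 and -0.45, adjusted p of the difference = 0.00134 by limma), mav (0.63 and -0.62, 0.00127), aub (0.58 and -0.34, 0.0182), nom (0.74 and -0.06, 0.023), eIF4B (0.58 and -0.16, 0.0403) and dpa (0.32 and -0.46, 0.0325). On the other side, the lipid genes Fitm (-0.75 in adults and 0.35 in larvae, 0.00725), AkhR (-0.87 and 0.07, 0.0195) and Lip4 (-0.59 and 0.50, 0.0108) differed between the stages. So did the complex I genes ND-13B (-0.34 and 0.30, 0.0182) and ND-B17.2 (-0.44 and 0.21, 0.0356), and the digestive genes Jon25Bi (-0.54 and 0.40, 0.0181) and Mal-A3 (-0.56 and 0.64, 0.035). The remaining ones were CG1407, Cyp6a22, Est-Q, EbpIII, SPARC and Tsp42Ef, with adult minus larval differences between -0.92 for Tsp42Ef and EbpIII and -0.77 for SPARC.

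**Figure D5:**
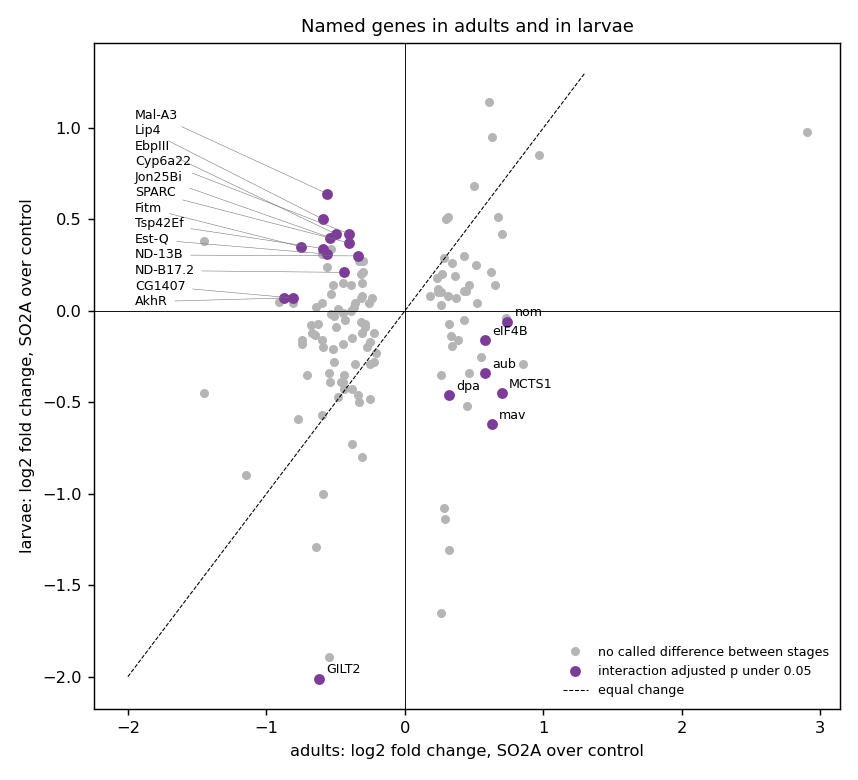
Log2 fold change of SO2A over control in larvae against that in adults for the named genes, 1 point each, with the dashed line at equal change. The 20 genes whose fold change differed between the stages at an adjusted interaction p under 0.05 are purple and named, and GILT2 lies lowest, at -0.62 in adults and -2.01 in larvae.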

How the data were processed

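Whole adult flies of 6 populations (3 SO2A, 3 control) were measured on 12 Affymetrix Drosophila Genome 2.0 arrays, 2 for each population. The authors deposited 1 linear intensity per probe set and array. Their methods name model-based expression indices in dChip and robust multi-array averaging, and the sources used here do not say which of them gave these intensity values. No background flags were used. Of 18952 probe sets, 183 array controls were left out. Intensities were raised to at least 1 and put on the log2 scale. R 4.3.3 and limma 3.58.1 (lmFit, duplicateCorrelation, eBayes) compared SO2A with control adults with the population as a random block (correlation 0.133 between the 2 arrays of a population), with Benjamini-Hochberg adjustment over 18769 probe sets. The block treats the 2 arrays of a population as related samples. Whether they came from separate cultures is not stated, so p-values measure the spread between these arrays and populations. The selection by stage interaction used all 24 arrays. The script was first tested on simulated data. The number of arrays limits the precision, and the median standard error of a member's log2 fold change was 0.137.

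The members, gene lists and tests were chosen with earlier results of these data known. Named genes are the called members, the 12 largest positive and 12 largest negative fold changes among members whose groups did not overlap, and up to 4 genes of each function list by moderated t. Not every gene of that last kind is described. Gene symbols came from the platform annotation with updated names, and 13646 of the probe sets tested carry 1 symbol, 402 several and 4721 none listed. The alternatives were other error models, scalings, floors and limits, each population left out, and single arrays left out.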

Additional observations from a re-analysis of the deposited data

Results flagged for a closer look

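The genes were searched for single arrays that stood apart within their group of 6, where the gap to the nearest other array is given as a share of the range of the group. In 21 of 280 groups this share passed the limit, and chance flags about 1 in 20 groups (14 of 280). SO2A array 2-2 stood apart in 2 genes, with a share of 0.669 for Glyp and 0.742 for Tsp42Eg. SO2A array 3-2 stood apart in 1 gene, with a share of 0.753 for EbpIII. Control array 3-1 stood apart in 12 genes, with a share of 0.654 for COX7AL2, 0.758 for AkhR, 0.748 for Obp18a, 0.664 for Gapdh1, 0.753 for ATPsynO, 0.653 for apolpp, 0.665 for Pgm1, 0.683 for MtnA, 0.628 for bam, 0.717 for Gbp1, 0.774 for SPARC and 0.747 for GstZ1. Control array 2-2 stood apart in 3 genes, with a share of 0.669 for AGBE, 0.66 for fh and 0.743 for Vha26. Control array 2-1 stood apart in 2 genes, with a share of 0.683 for ND-13B and 0.77 for Cp7Fc. Control array 3-2 stood apart in 1 gene, with a share of 0.632 for Mccc1. The 12 genes of control array 3-1 include COX7AL2, AkhR, Obp18a, Gapdh1, Gbp1 and SPARC, whose SO2A arrays all lay below that array and every other control array.

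The fold change differed between adults and larvae in 20 of the 140 genes by the interaction term of limma at an adjusted p under 0.05. The 140 were chosen by adult values on arrays that enter this term, so the count is not read against the 1.97% of all probe sets. The adult minus larval difference of log2 fold changes was 1.4 for GILT2, 0.8 for nom, 1.15 for MCTS1, 1.26 for mav, 0.74 for eIF4B, 0.92 for aub and 0.78 for dpa. On the negative side it was -0.94 for AkhR, -0.89 for CG1407, -1.1 for Fitm, -0.94 for Jon25Bi, -1.2 for Mal-A3, -0.64 for ND-13B, -0.66 for ND-B17.2, -1.09 for Lip4, -0.83 for Cyp6a22, -0.92 for EbpIII, -0.77 for SPARC, -0.92 for Tsp42Ef and -0.87 for Est-Q. With arrays taken as independent 18 of the 140 passed, and with quantile normalization 16.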

How the results depend on the processing

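The sign of the fold change of the 7 called genes stayed in all alternatives run, while the number of called members, 7 with limma, depended on the error model and the scaling. It was 33 with arrays taken as independent, 89 with a variance trend, 78 with the floor at the 20th percentile of signal, 90 with only bright probe sets tested, 106 with all 24 arrays in 1 fit (3 of the 7 among them, with adjusted p of 0.407 for COX7AL2, 0.308 for CG7381, 0.291 for GILT2 and 0.066 for Cyp6t1) and 122 by the methods' t-test with Benjamini-Hochberg adjustment. By the methods' t-test at the methods' own limits it was 0. Members leave out the study's table, which the paper drew at these limits, so this 0 is not read as a dependence. The number of called members was 0 for population means (391 members with an unadjusted p under 0.05), 0 for the second arrays alone (307), 0 with median centring (423), 1 for the first arrays alone and 1 with the array number as a fixed term. With each population left out it lay between 0 and 1. With the shared replicate number as a block it was 12, the 7 among them, but the numbers did not pair the samples (correlations of -0.02, -0.53 and 0.024 for the 3 pairs). Chosen after seeing the data, leaving out SO2A array 2-2 gave 3, control array 3-1 gave 2, and SO2A arrays 1-1, 1-2 and 2-2 gave 73. Signal limits of 500 and 2000 gave 12 and 4. Apart from 0.357% in the main fit and 1.20% by the methods' t-test, no share over all probe sets is set beside these counts. The counts thus do not show whether members moved more than other probe sets. Of the 140 genes, 4 turned in sign under an alternative: Arr1 lay between -0.63 and 0.05 with each population left out, Cp7Fc was 0.05 and yellow-g2 0.21 without the 3 SO2A arrays, and betaTub85D was -0.01 with the first arrays alone. Of all 2660 gene values under alternatives, these 4 included, 2519 stayed on their side of the threshold with the same sign, 96 lost their call and 41 gained one. The cause of these changes was not tested, apart from the smaller number of tests or arrays where the alternative sets it.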

Other observations

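A pair of named members with large fold changes overlapped between the groups and were picked after their values were seen. CG14499 had signals of 8731 and 1166 in SO2A population 1, 14895 and 656 in SO2A population 2 and 14825 and 8417 in SO2A population 3, against 278 to 1126 on the control arrays. The log2 fold change was 2.90, with an adjusted p of 0.227 from limma. SO2A array 2-2 lay within the control range and SO2A array 1-2 just above it. Sfp24Bb, a seminal fluid protein gene, had signals of 4505 to 25783 on the SO2A arrays, against 15058 to 56574 on the control arrays (log2 fold change -1.45, adjusted p = 0.214). Its sign was opposite to that of most accessory gland genes.

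A pair of probe sets without a gene name, also picked after their values were seen, had the largest fold changes among members whose SO2A arrays all lay above the control arrays. The first had signals of 1413 to 1873 on the SO2A arrays, against 361 to 1072 on the control arrays (log2 fold change 1.45, adjusted p = 0.0651 from limma). The second had signals of 2374 to 7076 on the SO2A arrays, against 1148 to 2040 on the control arrays (log2 fold change 1.42, adjusted p = 0.0651 from limma).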
